A study of Homo sapiens with 18 samples.

Results

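The genes described here are 46 that copy DNA or supply its precursors, picked by name from a table of 28266 gene rows, and all 46 were among the 14341 genes with enough counts to be tested. They cover the steps from licensing a replication origin to chromatin assembly behind the fork: 4 origin licensing factors, 7 minichromosome maintenance (MCM) genes, 5 genes for CDC45 and the GINS complex, 5 for the sliding clamp and its loader, 8 for DNA polymerases and primase, 2 for maturation of the lagging strand, 3 for replication protein A (RPA), 5 for nucleotide synthesis, 3 for chromatin duplication and 4 regulators of entry into S phase. The RNA came from IMR90 ER:RAS cells, human lung fibroblasts that carry an oncogenic RAS fused to the oestrogen receptor, so that 4-hydroxytamoxifen (4OHT) switches RAS on and the cells enter oncogene-induced senescence, a lasting arrest of proliferation. Cells received 100 nM 4OHT (senescent) or DMSO (control), and 7 days later DMSO, IMP1088 at 300 nM or DDD86481 at 1.5 µM was added for 3 days before collection at day 10. Both compounds inhibit N-myristoyltransferase (NMT), which attaches the lipid myristate to the amino terminus of proteins. All 6 groups, of 3 libraries each, carried the ER:RAS construct, and the labels give no allele or strain beyond it. The study counts its replicates of this RNA as independent experiments.

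Before S phase, the origin recognition complex, CDC6 and CDT1 load the MCM2-7 helicase onto DNA. CDC45 and GINS then turn it into the moving replicative helicase, primase and polymerase alpha start each new strand, and polymerases delta and epsilon extend it while held by the PCNA ring. Ribonucleotide reductase, thymidylate synthase and thymidine kinase provide deoxynucleotides. Most of these genes are transcribed in a wave at the G1/S boundary under E2F factors, which the retinoblastoma family restrains, and they are textbook markers of cycling fibroblasts that decline when fibroblasts become senescent. In bulk RNA, fewer cycling cells and less RNA per cycling cell cannot be told apart. The study also reports that both compounds selectively killed such senescent cells, in survival assays longer than the treatment used here. Whether a loss of cells had a part in the RNA levels of senescent cells was not tested.

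Libraries held 16143716 to 23189950 counts, so that 3 counts, the level below which a gene was treated as not quantified, equal 0.121 to 0.187 counts per 1000000 counts (CPM). CPM were computed on library sizes scaled by the trimmed mean of M-values (TMM), and genes were tested with edgeR's quasi-likelihood test over all 18 libraries, with a gene called higher or lower at a Benjamini-Hochberg adjusted p under 0.05. All 10 fibroblast markers chosen for the check, among them COL1A1 and VIM, were above 3 counts in every library. Their summed level was 24831 to 31466 CPM in control DMSO, 30619 to 36275 CPM in control cells with an inhibitor, 16646 to 17064 CPM in senescent DMSO and 11559 to 12346 CPM in senescent cells with an inhibitor. The makeup of this sum differed between the states. In senescent DMSO 8 of the 10, all but VIM and FAP, lay below every control DMSO library, DCN at 7.41 to 7.97 CPM against 2805 to 3255 CPM and COL3A1 at 250.5 to 346 CPM against 3011 to 4210 CPM, whereas VIM lay above, at 11252 to 11938 CPM against 4786 to 5534 CPM. Of 4 endothelial markers, 1 was above 3 counts in every control DMSO library and 4 in every senescent DMSO library, with sums of 1.09 to 1.89 CPM and 24.6 to 33.9 CPM, largely from VWF in control DMSO and from CLDN5 in senescent DMSO. Of 5 epithelial markers, 2 were above 3 counts throughout, KRT5 and KRT14 were at 0 everywhere, and the sum was 2.54 to 3.58 CPM in control DMSO and 9.96 to 11.8 CPM in senescent DMSO. Of leukocyte markers, CD3E was at 0 in every library. The part of these markers in the results was not tested. Control DMSO replicate 3 stood apart from its group, and the counts of the 46 genes called against control DMSO are given with and without it.

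Taken as a sum, the 46 genes made up 1039 to 1186 CPM in control DMSO, 719 to 782 CPM in control cells with IMP1088 and 714 to 751 CPM with DDD86481. In senescent cells they made up 554 to 604 CPM with DMSO, 731 to 742 CPM with IMP1088 and 689 to 748 CPM with DDD86481. The sums with an inhibitor were thus below DMSO in control cells and above DMSO in senescent cells, with no overlap between libraries in either state. A sum gives most weight to the genes with the highest CPM, so it does not show how many of the 46 moved. The highest sum was that of control DMSO replicate 3, and the other 2 control DMSO libraries, at 1045 and 1039 CPM, also lay above every other library.

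**Figure D1:**
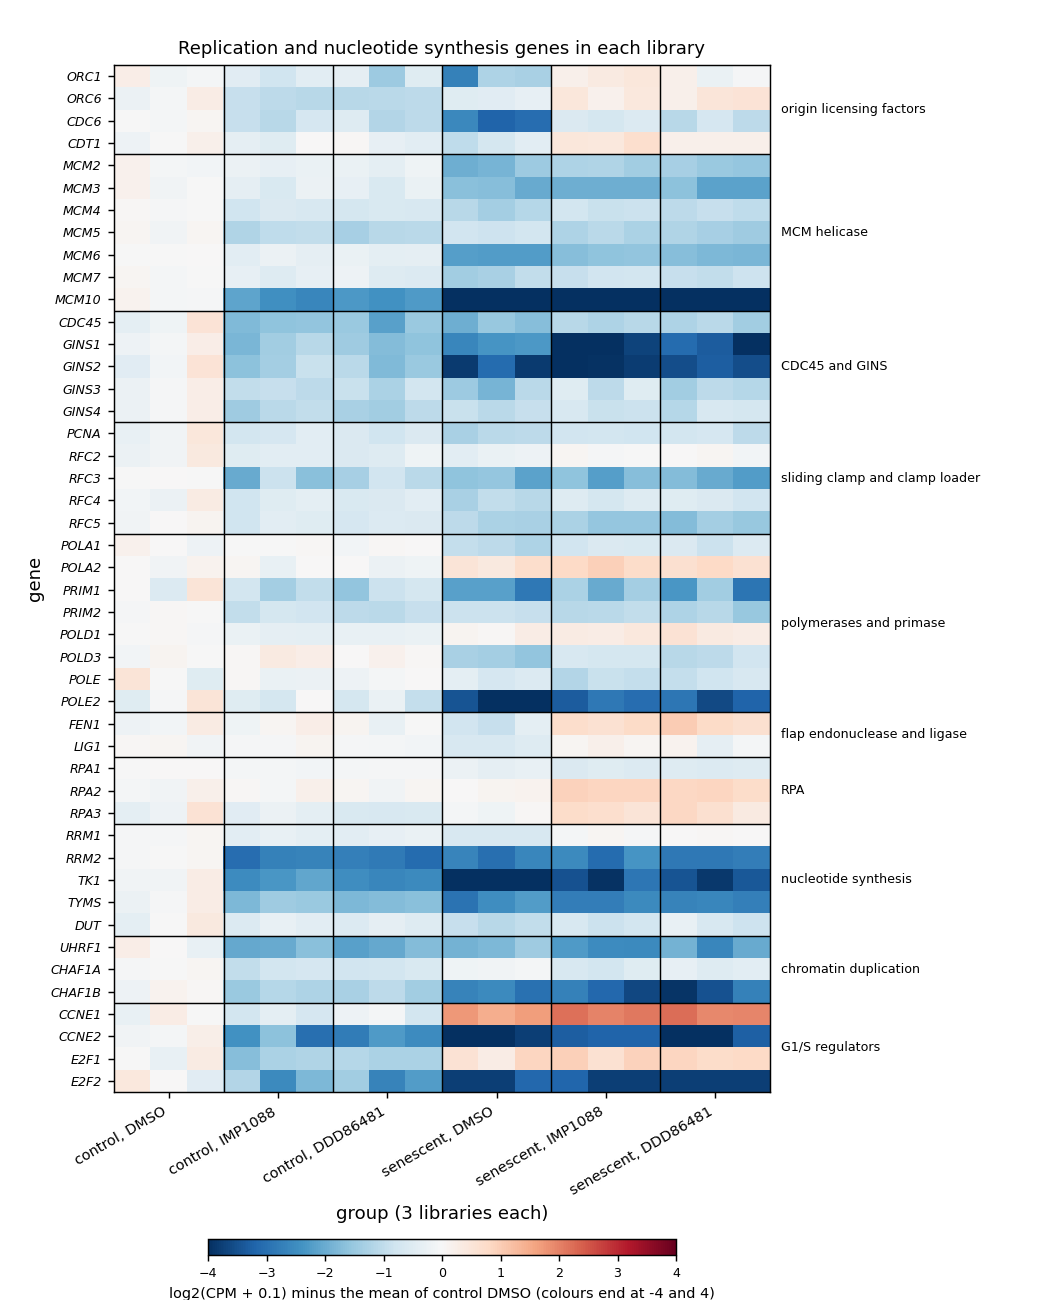
Level of each of the 46 genes (rows, grouped by role) in each of the 18 libraries (columns), as log2(CPM + 0.1) minus the mean of control DMSO; blue is lower, red is higher. The control columns with an inhibitor are mostly blue, the senescent DMSO columns mostly a deeper blue, and ORC6, CDT1, FEN1, RPA2 and RPA3 turn red in the senescent columns with an inhibitor.

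Senescence lowered 38 of the 46 genes and raised 3 in cells that received DMSO at day 7, while 36% of all genes tested were called lower and 32.5% higher. The median log2 fold change was -1.20 over the 46 genes and -0.051 over all genes tested. The 3 that rose were POLA2, CCNE1 and E2F1, and the 5 that did not pass the test were RFC2, POLD1, RPA2, RPA3 and CHAF1A. Genes were lowered in every role. Without control DMSO replicate 3, 37 of the 46 were lowered and 3 raised. Scaling by the upper quartile in place of TMM moved the median of all genes by -0.15 and that of the 46 to -1.36, and no call of the 46 was lost, while RFC2 and CHAF1A were called lower in addition.

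In control cells, IMP1088 lowered 33 of the 46 genes and raised 0, while 17.4% of all genes were lower and 16.3% higher. DDD86481 lowered 34 and raised 0, against 18.7% lower and 17.8% higher of all genes. At an unadjusted p under 0.05 edgeR also put 0 of the 46 higher with either compound, as did DESeq2 at an adjusted p under 0.05. The median log2 fold changes were -0.63 with IMP1088 and -0.69 with DDD86481, and those of all genes tested were -0.0011 and 0. Without control DMSO replicate 3, IMP1088 lowered 31 of the 46 genes and DDD86481 lowered 28, and without control IMP1088 replicate 1, IMP1088 lowered 29. The 2 comparisons share the control DMSO libraries, and the doses of the compounds differ, so that their values are set side by side without a test between them.

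In senescent cells the counts pointed the other way. IMP1088 raised 20 of the 46 genes and lowered 5, against 20.6% higher and 23.9% lower of all genes tested. DDD86481 raised 18 and lowered 5, against 20.1% higher and 23.1% lower. The median log2 fold changes were 0.37 and 0.29, and those of all genes were -0.043 and -0.037. Without senescent DDD86481 replicate 1, DDD86481 raised 12 of the 46 and lowered 6, and without senescent DMSO replicate 1 or senescent DDD86481 replicate 3 it lowered 3.

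Whether the RNA change with an inhibitor differed between the 2 states was tested by the interaction, the log2 change in senescent cells less the one in control cells. It was above 0 for 33 genes with IMP1088 and below 0 for none, where 12.1% of all genes were above and 14.2% below. With DDD86481 it was above 0 for 32 and below 0 for none, where 14.4% were above and 15.9% below. The count below 0 was 0 for both at an unadjusted p under 0.05 in edgeR and at an adjusted p under 0.05 in DESeq2. The interactions of the 2 compounds share the DMSO libraries of both states. The control and senescent comparisons of a compound share no library, and in these 11 genes were lower with IMP1088 in control cells and higher with it in senescent cells: ORC6, CDC6, MCM4, MCM6, MCM7, GINS3, RFC4, RRM1, TK1, CCNE1 and CCNE2. DDD86481 did the same in 11, ORC1, ORC6, CDC6, MCM6, MCM7, RFC4, POLD1, RPA3, RRM1, TK1 and DUT. Of all genes tested, 1.02% did so with IMP1088 and 1.21% with DDD86481.

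**Figure D2:**
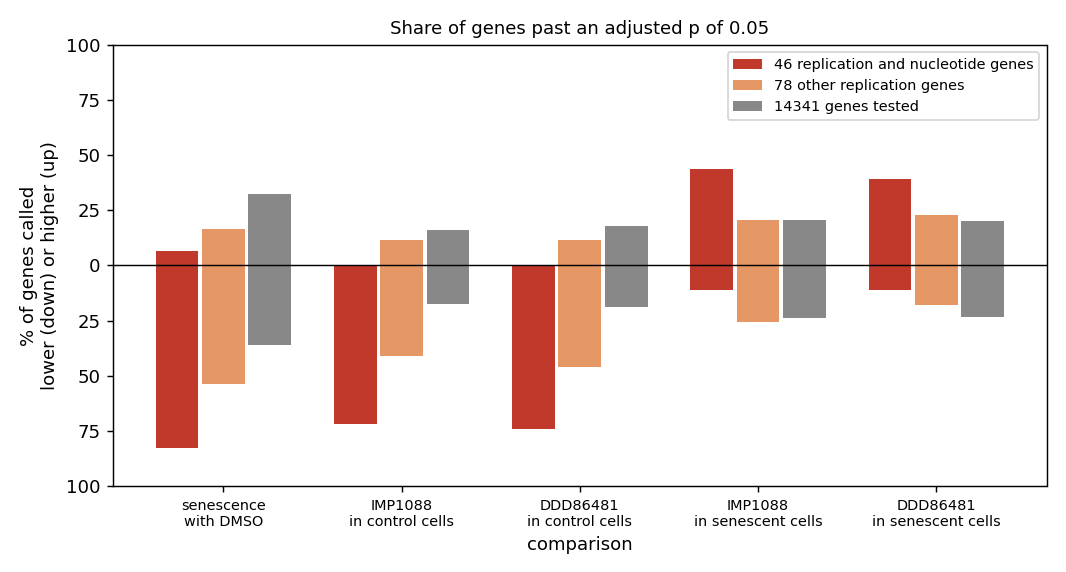
Percent of genes called higher (bars above 0) or lower (bars below 0) in 5 comparisons, for the 46 genes, 78 other replication genes and all 14341 genes tested. The 46 genes have no bar above 0 for either inhibitor in control cells, and in senescent cells their bars above 0 (20 and 18 genes) exceed those below (5 and 5).

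Promoters of genes that fell with the compounds in control cells are shown here, picked by role, by the presence of an E2F word and by the size of the fall. Whether E2F sites had a part in the fall was not tested. RefSeq promoter windows, from 250 bases before to 50 after the transcript start, were at hand for 39 of the 46 genes. The words TTTCCCGC, TTTCGCGC, TTTGCCGC and TTTGGCGC, taken as the E2F site and searched on both strands, were in a window of 21 of these 39 genes (53.8%) and of 1090 of all 27305 genes with a window (3.99%). The CCAAT box, searched as CCAAT, was in 22 of 39 (56.4%) against 39.7%, and the cell cycle homology region, searched as TTTGAA, in 2 of 39 (5.13%) against 18.2%. An E2F word overlapped a CCAAT box in 1 window of these genes, and 2 E2F words overlapped each other in 2 windows. The shares of all genes were taken over every gene with a window, whether or not it was among the 14341 genes tested. A match is a description of letters, not a bound site. In each role that held genes with an E2F word, the gene of these with the largest mean fall in control cells was taken. The mean is over the 2 compounds, and the 6 genes that fell most are printed. Those left out, which fell less, were POLE2 (mean log2 change -0.55), MCM7 (-0.41) and LIG1 (-0.043). Sequences are on the strand of the gene and in GRCh38.p14, with the E2F word in capitals:
E2F2 (chr1:23531184-23531483, strand -): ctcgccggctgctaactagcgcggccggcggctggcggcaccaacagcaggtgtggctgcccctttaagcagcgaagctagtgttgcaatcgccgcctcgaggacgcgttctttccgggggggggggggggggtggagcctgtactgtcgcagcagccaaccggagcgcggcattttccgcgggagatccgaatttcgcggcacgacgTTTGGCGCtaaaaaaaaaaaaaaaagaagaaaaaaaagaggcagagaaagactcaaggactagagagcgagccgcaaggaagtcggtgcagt
UHRF1 (chr19:4909894-4910193, strand +): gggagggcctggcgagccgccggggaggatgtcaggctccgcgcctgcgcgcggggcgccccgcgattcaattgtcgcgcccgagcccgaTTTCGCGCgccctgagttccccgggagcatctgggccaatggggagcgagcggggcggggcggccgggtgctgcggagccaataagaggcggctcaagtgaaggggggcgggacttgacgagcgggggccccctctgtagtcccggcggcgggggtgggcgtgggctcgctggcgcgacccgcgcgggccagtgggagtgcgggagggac
TYMS (chr18:657403-657702, strand +): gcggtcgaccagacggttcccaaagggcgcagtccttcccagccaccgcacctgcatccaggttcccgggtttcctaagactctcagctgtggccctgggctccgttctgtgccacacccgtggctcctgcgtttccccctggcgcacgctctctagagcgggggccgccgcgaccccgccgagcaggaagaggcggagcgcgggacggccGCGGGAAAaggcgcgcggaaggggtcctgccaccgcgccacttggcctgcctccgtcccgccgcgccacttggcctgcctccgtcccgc
GINS1 (chr20:25407423-25407722, strand +): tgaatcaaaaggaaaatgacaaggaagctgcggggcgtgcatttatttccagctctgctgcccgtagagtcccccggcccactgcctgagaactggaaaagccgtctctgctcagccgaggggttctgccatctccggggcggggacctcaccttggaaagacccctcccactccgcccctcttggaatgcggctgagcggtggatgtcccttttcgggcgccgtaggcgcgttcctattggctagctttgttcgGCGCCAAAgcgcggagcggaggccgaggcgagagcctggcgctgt
RFC3 (chr13:33817899-33818198, strand +): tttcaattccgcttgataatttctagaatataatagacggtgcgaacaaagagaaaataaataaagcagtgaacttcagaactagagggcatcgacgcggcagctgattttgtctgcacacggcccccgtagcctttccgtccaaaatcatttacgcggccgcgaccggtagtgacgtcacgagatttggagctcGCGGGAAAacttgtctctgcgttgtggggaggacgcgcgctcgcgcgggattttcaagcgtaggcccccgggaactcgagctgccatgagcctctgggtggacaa
CDC6 (chr17:40287629-40287928, strand +): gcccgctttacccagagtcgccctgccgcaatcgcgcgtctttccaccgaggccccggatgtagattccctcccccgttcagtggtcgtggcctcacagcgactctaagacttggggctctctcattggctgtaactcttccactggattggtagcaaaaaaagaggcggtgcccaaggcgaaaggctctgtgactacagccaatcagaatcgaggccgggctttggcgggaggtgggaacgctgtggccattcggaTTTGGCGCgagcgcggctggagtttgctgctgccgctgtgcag
The word began -42, -160, -39, 5, -55 and 7 bases from the start in the order printed. RRM2, with the largest mean fall of all 46, had none of the E2F words in its window and 3 CCAAT boxes, shown in capitals as they read on this strand:
RRM2 (chr2:10122489-10122788, strand +): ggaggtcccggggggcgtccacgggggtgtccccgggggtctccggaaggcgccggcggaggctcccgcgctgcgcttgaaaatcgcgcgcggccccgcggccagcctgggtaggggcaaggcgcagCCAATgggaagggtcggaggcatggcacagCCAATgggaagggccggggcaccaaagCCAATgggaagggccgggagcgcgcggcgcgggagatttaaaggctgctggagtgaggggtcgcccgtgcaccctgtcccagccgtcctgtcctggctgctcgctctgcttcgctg

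Changes are given side by side for genes with and without an E2F word. In control cells the median log2 fold change with IMP1088 was -0.45 over the 21 genes with one and -0.71 over the 18 without, and with DDD86481 it was -0.69 and -0.71. In senescence the medians were -1.72 and -1.02. These are descriptions of the 39 genes, with no test.

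Origin licensing genes took part in every comparison. CDC6, the loader of the helicase, had 11.1, 10.7 and 12 CPM in the 3 control DMSO libraries and 1.79, 1.12 and 1.26 CPM in senescent DMSO. It fell 8.07-fold in senescence (log2 fold change -3.01 ± 0.21 SE, adjusted p = 8.55e-11). The libraries with IMP1088 had 5.92, 5.12 and 6.95 CPM in control cells and 7.47, 6.93 and 7.62 CPM in senescent cells, so they lay below DMSO in one state and above it in the other. With DDD86481 the levels were 7.77, 4.99 and 5.37 CPM and 5.19, 6.95 and 5.40 CPM. The log2 fold changes were -0.91 ± 0.17 and -0.90 ± 0.17 in control cells and 2.40 ± 0.22 and 2.07 ± 0.22 in senescent cells (adjusted p = 3.79e-04, 4.44e-04, 3.77e-08 and 3.58e-07). The promoter of CDC6 printed above carries its E2F word just after the start.

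ORC6, a small subunit of the origin recognition complex, fell least of the licensing genes in senescence (-0.44 ± 0.15) and most in control cells with an inhibitor. Its control libraries had 7.17, 7.97 and 10.3 CPM with DMSO, 4.36, 3.96 and 3.84 CPM with IMP1088 and 3.81, 3.92 and 4.02 CPM with DDD86481, with no overlap between DMSO and either compound. Its senescent libraries had 5.93, 6.04 and 6.70 CPM with DMSO, 11.4, 9.50 and 11.2 CPM with IMP1088 and 9.61, 11.8 and 12.2 CPM with DDD86481. Both compounds thus moved ORC6 above senescent DMSO in every library, by 0.78 ± 0.15 and 0.85 ± 0.15 on the log2 scale, after log2 changes of -1.06 ± 0.15 and -1.11 ± 0.15 in control cells. ORC1, an ATPase subunit of the same complex, fell at a log2 change of -1.70 ± 0.31 in senescence and rose by 2.04 ± 0.31 with IMP1088 and 1.66 ± 0.32 with DDD86481 in senescent cells. In control cells it fell with DDD86481 (-0.72 ± 0.27, adjusted p = 0.0447) and did not pass with IMP1088 (-0.57 ± 0.27, adjusted p = 0.105). CDT1, the partner of CDC6 in loading, had 9.51, 10.9 and 12.8 CPM in control DMSO, 8.48, 7.84 and 11.2 CPM with IMP1088 and 11.3, 8.68 and 8.18 CPM with DDD86481. These ranges overlap, and the differences of -0.27 ± 0.17 and -0.24 ± 0.17 did not pass (95% intervals -0.62 to 0.073 and -0.58 to 0.11). In senescent cells CDT1 had 5.43, 6.72 and 8.24 CPM with DMSO, 15.3, 14.8 and 17.7 CPM with IMP1088 and 12.8, 12.6 and 12.8 CPM with DDD86481, rises of 1.22 ± 0.17 and 0.90 ± 0.17. The interaction was above 0 for all 4 licensing genes with both compounds, from 1.49 ± 0.24 for CDT1 to 3.31 ± 0.28 for CDC6 with IMP1088 and from 1.14 ± 0.24 to 2.97 ± 0.28 with DDD86481. ORC6 was not called in senescence without control DMSO replicate 3 (log2 fold change -0.28). ORC1 was not called with DDD86481 in control cells without control DMSO replicate 1 or 3 or control DDD86481 replicate 2 or 3 (log2 fold changes -0.83 to -0.45). ORC6 was not called in senescence with only the groups compared in the fit (adjusted p = 0.0525). ORC1 was not called with DDD86481 in control cells with only the groups compared in the fit (adjusted p = 0.103).

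**Figure D3:**
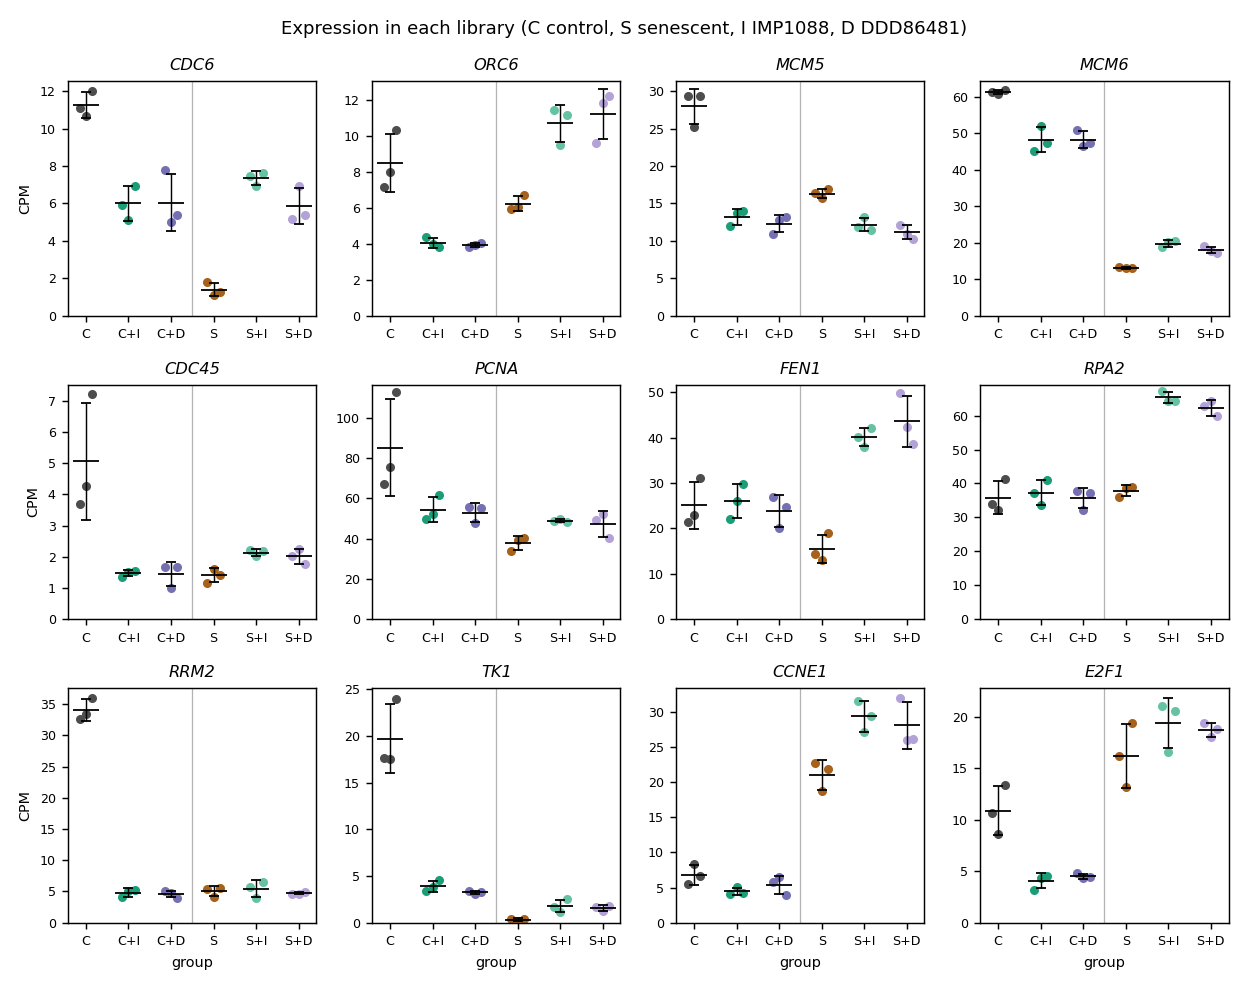
CPM of 12 of the 46 genes in each library (points), with the group mean (bar) and SD (whiskers, n = 3), in control (C) and senescent (S) cells with DMSO, IMP1088 (I) or DDD86481 (D); each vertical axis starts at 0. RRM2 stays near its control inhibitor level in all senescent groups, whereas CDC6, ORC6, FEN1 and RPA2 lie higher in both senescent inhibitor groups than in senescent DMSO.

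The 6 subunits of the MCM2-7 ring, the motor of the replicative helicase, all fell in senescence, from -0.78 ± 0.11 for MCM5 to -2.23 ± 0.091 for MCM6. MCM6 had 61.2, 60.7 and 61.9 CPM in control DMSO and 13.3, 12.9 and 13 CPM in senescent DMSO, groups far apart and each with little spread. With the compounds in control cells the subunits were ordered differently, with MCM5 falling most (-1.08 ± 0.11 with IMP1088, -1.19 ± 0.11 with DDD86481). MCM5 had 29.3, 25.2 and 29.4 CPM with DMSO, 11.9, 13.7 and 14 CPM with IMP1088 and 11, 12.8 and 13.1 CPM with DDD86481 in control cells. MCM2 changed least and did not pass with either compound (-0.29 ± 0.12, 95% interval -0.54 to -0.034, and -0.28 ± 0.12, -0.54 to -0.030). Its control libraries had 30.8, 25.7 and 25.4 CPM with DMSO, 23, 21.4 and 22.7 CPM with IMP1088 and 22.5, 20.5 and 24.2 CPM with DDD86481, with each treated library below each DMSO library. A gene on the opposite strand covers 23.6% of the exonic length of MCM2, and whether counting used strand is not given in the sources used here. MCM2 was called with IMP1088 in control cells with upper-quartile scaling (adjusted p = 0.0339). MCM2 was called with DDD86481 in control cells with upper-quartile scaling (adjusted p = 0.0283).

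In senescent cells the same ring moved in both directions. MCM6 rose with both compounds (0.59 ± 0.092 and 0.46 ± 0.093), and so did MCM7 (0.41 ± 0.12 and 0.30 ± 0.12). MCM5 fell again, at -0.43 ± 0.12 with IMP1088 and -0.55 ± 0.12 with DDD86481 (adjusted p = 0.00506 and 7.33e-04), from 16.4, 15.7 and 16.9 CPM with DMSO to 11.8, 13.1 and 11.4 CPM and 12.2, 11 and 10.3 CPM. The smallest difference in the ring was that of MCM3, which did not pass with either (-0.16 ± 0.15 and -0.17 ± 0.15). MCM2 rose with IMP1088 (0.46 ± 0.14, adjusted p = 0.00972), whereas DDD86481 gave no call (0.28 ± 0.14, adjusted p = 0.112). MCM2 had 6.98, 7.47 and 9.89 CPM in senescent DMSO, 11.5, 11.8 and 10.2 CPM with IMP1088 and 10.7, 9.66 and 9.20 CPM with DDD86481. MCM7 was not called with DDD86481 in senescent cells without senescent DMSO replicate 1 or 2 or senescent DDD86481 replicate 1, 2 or 3 (log2 fold changes 0.22 to 0.34). MCM2 was not called with IMP1088 in senescent cells without senescent DMSO replicate 1 (log2 fold change 0.36). MCM2 was called with DDD86481 in senescent cells without senescent DMSO replicate 3 (log2 fold change 0.45). MCM7 was not called with DDD86481 in senescent cells without a filter on low counts or with only the groups compared in the fit (adjusted p = 0.0684 to 0.0742).

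Levels of the ring subunits were compared as CPM per kilobase of canonical transcript. In control DMSO they ranged from 7.95 ± 0.874 for MCM2 to 25.9 ± 1.36 for MCM7, with 16.3 ± 0.148 for MCM6 (mean ± SD, n = 3). In senescent DMSO MCM6 stood at 3.49 ± 0.0580, below MCM5 at 4.72 ± 0.172, whereas in control DMSO it was above MCM5 at 8.09 ± 0.689. With IMP1088 in senescent cells MCM6 was at 5.26 ± 0.241 and MCM5 at 3.51 ± 0.257, and with DDD86481 they were at 4.78 ± 0.243 and 3.22 ± 0.275. The order of these 2 subunits thus changed in senescent DMSO and changed back with the compounds, each time by more than the SDs.

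**Figure D4:**
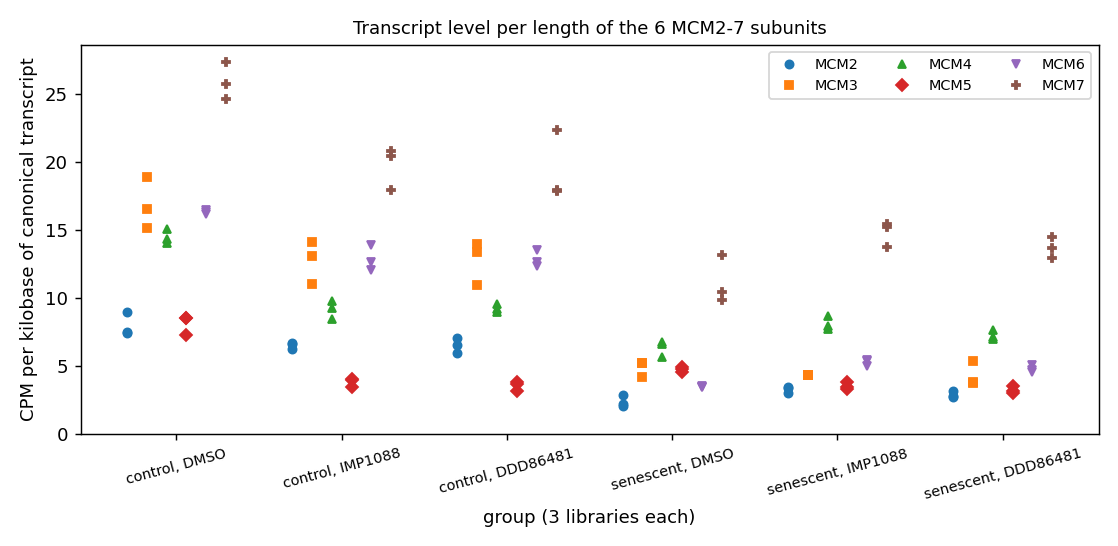
Level of the 6 ring subunits in CPM per kilobase of canonical transcript, 1 point a library, in the 6 groups; the axis starts at 0. MCM7 is highest in every group, and MCM6 lies below MCM5 in senescent DMSO alone.

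MCM10, which helps open the origin after the ring is loaded, fell most of the MCM genes. It had 6.33, 5.51 and 5.57 CPM in control DMSO, 1.25, 0.980 and 0.874 CPM with IMP1088 and 1.10, 1.01 and 1.12 CPM with DDD86481. Its senescent libraries had 0.185, 0.0623 and 0 CPM with DMSO, 0.0526, 0 and 0 CPM with IMP1088 and 0.109, 0.0522 and 0 CPM with DDD86481, at or under 3 counts in every library. The log2 changes with the compounds in control cells were -2.48 ± 0.26 and -2.42 ± 0.26. Between control and senescent DMSO the summed counts were 406 and 4, a scaled ratio of 73.4 with an exact 95% counting interval of 28.5 to 271, and no fold is given among the senescent groups.

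CDC45 and the 4 GINS genes, the cofactors that complete the helicase, all fell in senescence, from -0.99 ± 0.16 for GINS4 to -3.80 ± 0.32 for GINS2, and all fell with both compounds in control cells. CDC45 had the largest falls with a compound, -1.76 ± 0.24 with IMP1088 and -1.77 ± 0.25 with DDD86481. Its control libraries had 3.71, 4.26 and 7.22 CPM with DMSO, 1.35, 1.51 and 1.55 CPM with IMP1088 and 1.67, 1.01 and 1.68 CPM with DDD86481, with replicate 3 of DMSO far above the other 2 and all 3 above every treated library. Its senescent libraries had 1.17, 1.62 and 1.43 CPM with DMSO, 2.21, 2.01 and 2.19 CPM with IMP1088 and 2.02, 2.25 and 1.78 CPM with DDD86481. The compounds' libraries lay above DMSO, by 0.60 ± 0.28 and 0.52 ± 0.28, and neither difference passed (adjusted p = 0.0859 and 0.143). GINS3 changed least in control cells, from 3.35, 3.78 and 4.73 CPM with DMSO to 1.91, 2.00 and 1.85 CPM with IMP1088 and 2.09, 1.57 and 2.29 CPM with DDD86481, log2 changes of -1.03 ± 0.22 and -0.98 ± 0.22. In senescent cells GINS3 had 1.36, 0.996 and 1.81 CPM with DMSO, 2.79, 1.84 and 2.75 CPM with IMP1088 and 1.42, 1.83 and 1.72 CPM with DDD86481. It rose with IMP1088 (0.81 ± 0.25, adjusted p = 0.0120), and no call with DDD86481 (0.24 ± 0.26, adjusted p = 0.489). GINS3 was not called with IMP1088 in senescent cells without senescent DMSO replicate 2 or senescent IMP1088 replicate 1 (log2 fold changes 0.63 to 0.71). CDC45 was called with IMP1088 in senescent cells with only the groups compared in the fit (adjusted p = 0.0453).

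The smallest differences in senescent cells were those of GINS4 with IMP1088 (0.19 ± 0.16) and GINS2 with DDD86481 (0.10 ± 0.46), and neither passed. GINS1, one of the 4 GINS subunits, fell with the compounds in senescent cells too, as MCM5 did. It had 1.17, 1.43 and 1.48 CPM in senescent DMSO, 0.210, 0.391 and 0.504 CPM with IMP1088 and 0.819, 0.679 and 0.245 CPM with DDD86481, after 6.69, 7.32 and 9.35 CPM in control DMSO. At these levels the senescent libraries with a compound held few counts of GINS1. The log2 fold changes were -1.88 ± 0.39 and -1.20 ± 0.35 in senescent cells (adjusted p = 5.22e-04 and 0.00973) and -1.44 ± 0.22 and -1.62 ± 0.23 in control cells. Its interaction was not called with either compound (-0.44 ± 0.45 and 0.43 ± 0.44, 95% intervals -1.38 to 0.50 and -0.49 to 1.35). GINS1 was not called with DDD86481 in senescent cells without senescent DDD86481 replicate 3 (log2 fold change -0.86).

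PCNA, the ring that tethers polymerases to DNA, had the highest level per length of the 46 genes in control DMSO, at 66.7 ± 18.9 CPM per kilobase. It had 67.2, 75.7 and 113 CPM in control DMSO, 49.6, 52.2 and 61.4 CPM with IMP1088 and 55.6, 47.5 and 55.4 CPM with DDD86481, each treated library below each DMSO library. It fell at a log2 change of -1.17 ± 0.15 in senescence, at -0.65 ± 0.15 with IMP1088 and at -0.69 ± 0.15 with DDD86481 in control cells. Its senescent libraries had 33.9, 39.3 and 40.1 CPM with DMSO, 48.8, 49.6 and 48.3 CPM with IMP1088 and 49.5, 52.3 and 40.2 CPM with DDD86481. The compounds' differences there, 0.37 ± 0.15 and 0.33 ± 0.15, did not pass (adjusted p = 0.0515 and 0.0898). PCNA was called with DDD86481 in senescent cells without senescent DDD86481 replicate 3 (log2 fold change 0.43). PCNA was called with IMP1088 in senescent cells without a filter on low counts, with a replicate block, with only the groups compared in the fit or with DESeq2 (adjusted p = 4.42e-04 to 0.0477). PCNA was called with DDD86481 in senescent cells with only the groups compared in the fit (adjusted p = 0.0377).

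Replication factor C genes, which encode the loader of PCNA, fell with both compounds in control cells in all 4 cases. RFC3 fell most, at -1.43 ± 0.23 with IMP1088 and -1.06 ± 0.23 with DDD86481, from 10.04, 10.4 and 10.1 CPM to 2.46, 5.61 and 3.16 CPM and 4.02, 5.94 and 4.72 CPM. RFC2 fell least, at -0.46 ± 0.14 and -0.43 ± 0.14, from 19.3, 20.3 and 29.4 CPM to 16.1, 17 and 16.9 CPM and 15.2, 15.9 and 19.9 CPM, and replicate 3 of DMSO stood above the other 2. In senescence RFC3 fell at a log2 change of -1.78 ± 0.25, and RFC2 did not pass (-0.31 ± 0.14, 95% interval -0.61 to -0.021). RFC3 had the smallest difference with a compound in senescent cells (-0.070 ± 0.27 and -0.23 ± 0.28). Of this role RFC4 alone was called in senescent cells with a compound, rising by 0.54 ± 0.16 with IMP1088 and 0.53 ± 0.16 with DDD86481. RFC2 was not called with IMP1088 in control cells without control DMSO replicate 3 or control IMP1088 replicate 1 (log2 fold changes -0.43 to -0.25). RFC2 was not called with DDD86481 in control cells without control DMSO replicate 3 or control DDD86481 replicate 1 or 2 (log2 fold changes -0.38 to -0.22). RFC2 was called in senescence without control DMSO replicate 1 or 2 (log2 fold changes -0.43 to -0.42). RFC4 was not called with IMP1088 in senescent cells without senescent DMSO replicate 1 (log2 fold change 0.46). RFC4 was not called with DDD86481 in senescent cells without senescent DMSO replicate 1 or senescent DDD86481 replicate 1 (log2 fold changes 0.45 to 0.46). RFC2 was not called with IMP1088 in control cells with only the groups compared in the fit (adjusted p = 0.0922). RFC2 was not called with DDD86481 in control cells with only the groups compared in the fit (adjusted p = 0.129). RFC2 was called in senescence with upper-quartile scaling or with a replicate block (log2 fold change -0.47, adjusted p = 0.00699 to 0.0465).

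Polymerase and primase genes did not all move one way. Of 8, 6 fell and 1 rose in senescence, and 3 fell with each compound in control cells. POLE2, a subunit of polymerase epsilon, had 2.14, 2.98 and 4.43 CPM in control DMSO and 0.185, 0 and 0 CPM in senescent DMSO. The summed counts were 216 and 3, a scaled ratio of 52.1 with a 95% counting interval of 17.6 to 255. PRIM1, the catalytic subunit of primase, fell at a log2 change of -2.61 ± 0.39 in senescence and at -1.10 ± 0.32 and -1.09 ± 0.32 with the compounds in control cells. It had 3.51, 2.33 and 4.93 CPM in control DMSO, 2.01, 1.29 and 1.70 CPM with IMP1088 and 1.10, 1.85 and 2.06 CPM with DDD86481, so that the lowest DMSO library was not far above the highest treated one. In senescent cells it was near the limit of counting, at 0.679, 0.685 and 0.385 CPM with DMSO, 1.37, 0.783 and 1.29 CPM with IMP1088 and 0.601, 1.25 and 0.368 CPM with DDD86481. POLD1, the catalytic subunit of polymerase delta, changed least of this role in senescence (0.16 ± 0.10) and did not pass. POLA2, the regulatory subunit of polymerase alpha, rose in senescence (0.54 ± 0.12, adjusted p = 5.47e-04), and its catalytic partner POLA1 fell (-1.09 ± 0.13, adjusted p = 4.55e-07). PRIM1 was not called with IMP1088 in control cells without control DMSO replicate 3 or control IMP1088 replicate 2 (log2 fold changes -0.93 to -0.81). PRIM1 was not called with DDD86481 in control cells without control DMSO replicate 3 or control DDD86481 replicate 1 (log2 fold changes -0.85 to -0.80).

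POLA1 changed least in control cells with a compound, at 12.5, 11.2 and 9.65 CPM with DMSO, 11, 10.9 and 11.5 CPM with IMP1088 and 10.3, 11.4 and 11.1 CPM with DDD86481. The groups overlap, and the 95% intervals of the differences were -0.26 to 0.26 and -0.28 to 0.24. In senescent cells POLA1 had 5.68, 5.35 and 4.67 CPM with DMSO, 6.52, 7.43 and 7.23 CPM with IMP1088 and 7.43, 6.06 and 7.54 CPM with DDD86481, rises of 0.43 ± 0.14 and 0.42 ± 0.14. POLD3, an accessory subunit of polymerase delta, also rose there (0.74 ± 0.13 and 0.45 ± 0.13) after a log2 change of -1.43 ± 0.13 in senescence, and in control cells it did not pass (0.23 ± 0.12 and 0.082 ± 0.12). The smallest differences of this role in senescent cells were those of PRIM2 with IMP1088 (-0.18 ± 0.12) and POLA2 with DDD86481 (0.14 ± 0.12), and neither passed. PRIM2, the other primase subunit, fell with DDD86481 in senescent cells against the direction of its role (-0.40 ± 0.12, adjusted p = 0.0112). A same-strand transcript covers 18.3% of its exonic length. POLA1 was not called with IMP1088 in senescent cells without senescent DMSO replicate 3 or senescent IMP1088 replicate 2 (log2 fold changes 0.35 to 0.40). POLA1 was not called with DDD86481 in senescent cells without senescent DMSO replicate 3 or senescent DDD86481 replicate 1 or 3 (log2 fold changes 0.34 to 0.38). POLD3 was not called with DDD86481 in senescent cells without senescent DMSO replicate 3 or senescent DDD86481 replicate 3 (log2 fold changes 0.34 to 0.37). PRIM2 was not called with DDD86481 in senescent cells without senescent DDD86481 replicate 3 (log2 fold change -0.30). POLA1 was not called with IMP1088 in senescent cells without a filter on low counts (adjusted p = 0.0507). POLA1 was not called with DDD86481 in senescent cells without a filter on low counts or with only the groups compared in the fit (adjusted p = 0.0558 to 0.0641).

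FEN1, the nuclease that trims Okazaki fragments, and LIG1, the ligase that seals them, fell in senescence, did not pass in control cells with a compound, and rose in senescent cells with both. FEN1 had 21.5, 22.9 and 31 CPM in control DMSO, 22.1, 26.1 and 29.7 CPM with IMP1088 and 26.8, 19.999 and 24.7 CPM with DDD86481. These overlap, with differences of 0.052 ± 0.16 and -0.071 ± 0.16 (95% intervals -0.28 to 0.38 and -0.40 to 0.26). In senescent cells it had 14.4, 13 and 19 CPM with DMSO, 40.1, 38.1 and 42.2 CPM with IMP1088 and 49.8, 42.3 and 38.6 CPM with DDD86481. Every senescent library with a compound was above every control library, and the rises were 1.37 ± 0.16 and 1.49 ± 0.16 (adjusted p = 1.36e-06 and 5.11e-07) after a log2 change of -0.69 ± 0.16 in senescence. LIG1 had 17.5, 17.8 and 15.2 CPM in control DMSO, 16.2, 16.1 and 17.9 CPM with IMP1088 and 16.3, 16 and 15.6 CPM with DDD86481. In senescent cells LIG1 had 10.6, 10.8 and 11.6 CPM with DMSO, 17.9, 19.2 and 17.8 CPM with IMP1088 and 18.6, 13.1 and 15.9 CPM with DDD86481. Its log2 changes were -0.61 ± 0.12 in senescence, -0.0089 ± 0.12 and -0.078 ± 0.12 with the compounds in control cells, and 0.73 ± 0.12 and 0.52 ± 0.12 in senescent cells.

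The RPA trimer coats single-stranded DNA, and in senescent cells with a compound its genes went in different directions. RPA2 had 33.8, 32.3 and 41.3 CPM in control DMSO, 37.2, 33.6 and 41 CPM with IMP1088, 37.7, 32.3 and 37.2 CPM with DDD86481 and 35.9, 38.8 and 38.8 CPM in senescent DMSO. These 4 groups overlap. Its libraries with a compound in senescent cells had 67.4, 64.3 and 64.4 CPM and 62.7, 64.2 and 59.8 CPM, above all of them, rises of 0.79 ± 0.10 and 0.72 ± 0.10 (adjusted p = 3.83e-06 and 1.20e-05). The differences that did not pass were 0.082 ± 0.10 in senescence and 0.058 ± 0.10 and -0.00027 ± 0.10 in control cells. RPA3, the smallest subunit, rose likewise in senescent cells (0.71 ± 0.19 and 0.70 ± 0.19) and fell in control cells with DDD86481 (-0.68 ± 0.19, adjusted p = 0.00996), with -0.42 ± 0.19 for IMP1088 (adjusted p = 0.0968) and -0.12 ± 0.19 in senescence. Its libraries had 7.26, 8.37 and 14.4 CPM, 6.97, 8.06 and 7.29 CPM and 6.21, 6.16 and 6.26 CPM in control cells with DMSO, IMP1088 and DDD86481, and 9.01, 8.47 and 9.89 CPM, 15.9, 15.4 and 13.6 CPM and 17, 14.9 and 12.4 CPM in senescent cells. RPA1, the largest subunit, fell slightly in senescence (-0.30 ± 0.070) and again with both compounds in senescent cells (-0.25 ± 0.071 and -0.23 ± 0.071), and in control cells the differences of -0.091 ± 0.070 and -0.067 ± 0.070 did not pass. RPA3 was not called with DDD86481 in control cells without control DMSO replicate 3 (log2 fold change -0.33). RPA3 was called with IMP1088 in control cells without control DMSO replicate 1 (log2 fold change -0.60). RPA1 was not called with DDD86481 in senescent cells without senescent DMSO replicate 1 (log2 fold change -0.19). RPA3 was not called with DDD86481 in control cells with only the groups compared in the fit (adjusted p = 0.0791). RPA1 was not called with IMP1088 in senescent cells without a filter on low counts (adjusted p = 0.0631). RPA1 was not called with DDD86481 in senescent cells without a filter on low counts or with only the groups compared in the fit (adjusted p = 0.0689 to 0.0947).

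Nucleotide synthesis genes fell in all 5 cases in senescence and with both compounds in control cells. RRM2, the small subunit of ribonucleotide reductase whose level is tied to S phase, had 32.6, 33.5 and 36 CPM in control DMSO, 4.06, 5.12 and 5.29 CPM with IMP1088 and 5.01, 4.71 and 3.97 CPM with DDD86481. Its senescent libraries had 5.37, 4.11 and 5.55 CPM with DMSO, 5.79, 3.97 and 6.56 CPM with IMP1088 and 4.59, 4.65 and 4.97 CPM with DDD86481. All 5 groups other than control DMSO overlap. The fall was 6.77-fold in senescence, 7.03-fold with IMP1088 and 7.46-fold with DDD86481 in control cells (log2 fold changes -2.76 ± 0.16, -2.81 ± 0.16 and -2.90 ± 0.16, adjusted p = 4.95e-12, 2.98e-10 and 2.70e-10). Within senescent cells the differences were 0.12 ± 0.17 and -0.086 ± 0.18, with 95% intervals of -0.25 to 0.48 and -0.45 to 0.28. RRM2 fell most of the 46 genes with each compound in control cells, and its promoter is the one printed without an E2F word.

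RRM1, the large subunit of the same enzyme, fell least of the nucleotide genes in control cells, at -0.36 ± 0.080 and -0.35 ± 0.080. Its control libraries had 69.3, 69.2 and 76 CPM with DMSO, 53.8, 58.5 and 54.4 CPM with IMP1088 and 52.9, 56.4 and 59.2 CPM with DDD86481, and its senescent libraries 46.1, 45.4 and 45.7 CPM, 68.2, 76.1 and 69.4 CPM and 72.6, 73.8 and 72.1 CPM in the same order. It also fell least of the nucleotide genes in senescence (-0.65 ± 0.081). It rose with both compounds in senescent cells, by 0.64 ± 0.081 and 0.67 ± 0.081, to levels that overlap control DMSO. TK1, thymidine kinase of the salvage pathway, had 17.6, 17.5 and 23.9 CPM in control DMSO, 3.36, 3.79 and 4.52 CPM with IMP1088 and 3.39, 3.08 and 3.27 CPM with DDD86481. In senescent cells it had 0.370, 0.187 and 0.440 CPM with DMSO, a few counts a library, 1.63, 1.17 and 2.52 CPM with IMP1088 and 1.69, 1.25 and 1.78 CPM with DDD86481. Its fall was 57.4-fold in senescence and 5.05-fold and 6.04-fold with the compounds in control cells, and its rise in senescent cells was 2.38 ± 0.37 and 2.20 ± 0.38 on the log2 scale (adjusted p = 2.73e-05 and 8.83e-05). Its interactions, 4.71 ± 0.40 and 4.79 ± 0.41, were the largest of the 46 genes. TYMS, thymidylate synthase, fell at a log2 change of -2.56 ± 0.16 in senescence and at -1.58 ± 0.15 and -1.76 ± 0.15 in control cells, and did not pass in senescent cells (-0.16 ± 0.17 and -0.14 ± 0.17). The opposite-strand gene ENOSF1 covers 47.9% of the exonic length of TYMS. DUT, which removes dUTP, rose in senescent cells with DDD86481 (0.44 ± 0.16, adjusted p = 0.0289) and did not pass with IMP1088 (0.27 ± 0.16, adjusted p = 0.182). DUT was not called with DDD86481 in senescent cells without senescent DMSO replicate 2 or 3 or senescent DDD86481 replicate 1 (log2 fold changes 0.29 to 0.45). DUT was called with IMP1088 in senescent cells with only the groups compared in the fit (adjusted p = 0.0174).

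The 3 chromatin duplication genes fell with both compounds in control cells, and none rose in senescent cells. UHRF1, which recruits maintenance DNA methylation to new DNA, fell most, at -1.95 ± 0.19 with IMP1088 and -2.01 ± 0.19 with DDD86481. It had 21.5, 18.1 and 14.6 CPM in control DMSO, 4.21, 4.32 and 5.49 CPM with IMP1088 and 3.86, 4.26 and 5.28 CPM with DDD86481, and 4.75, 5.10 and 6.59 CPM, 3.63, 3.02 and 2.97 CPM and 4.70, 2.87 and 4.35 CPM in senescent cells with DMSO, IMP1088 and DDD86481 in turn. Senescence lowered it by a log2 change of -1.72 ± 0.19. It fell further with IMP1088 in senescent cells (-0.78 ± 0.21, adjusted p = 0.00560) and was not called with DDD86481 (-0.47 ± 0.21, adjusted p = 0.0735). CHAF1A and CHAF1B encode subunits of chromatin assembly factor 1, the histone depositor behind the fork. CHAF1A had 20.03, 20.5 and 21.9 CPM in control DMSO, 10.5, 12.4 and 12.9 CPM with IMP1088 and 12.2, 12.4 and 13.5 CPM with DDD86481, log2 changes of -0.80 ± 0.11 and -0.71 ± 0.11. In senescent cells CHAF1A had 18.5, 18.8 and 19.8 CPM with DMSO, 13.3, 12.6 and 14.7 CPM with IMP1088 and 16.4, 14.6 and 15.5 CPM with DDD86481, log2 changes of -0.49 ± 0.11 and -0.30 ± 0.11, whereas senescence itself gave -0.13 ± 0.11 (95% interval -0.35 to 0.091). CHAF1B fell at a log2 change of -2.84 ± 0.24 in senescence and at -1.31 ± 0.21 and -1.27 ± 0.21 in control cells, and its differences in senescent cells did not pass (-0.40 ± 0.32 and -0.63 ± 0.33). UHRF1 was called with DDD86481 in senescent cells without senescent DDD86481 replicate 1 (log2 fold change -0.62). CHAF1A was not called with DDD86481 in senescent cells without senescent DMSO replicate 1, 2 or 3 or senescent DDD86481 replicate 2 or 3 (log2 fold changes -0.32 to -0.26). CHAF1B was called with DDD86481 in senescent cells without senescent DDD86481 replicate 3 (log2 fold change -1.08). CHAF1A was not called with DDD86481 in senescent cells without a filter on low counts or with only the groups compared in the fit (adjusted p = 0.0631 to 0.0923). CHAF1A was called in senescence with upper-quartile scaling (log2 fold change -0.29, adjusted p = 0.0224).

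The G1/S regulators split in senescence. CCNE1 and CCNE2 encode the E-type cyclins that drive S phase entry with CDK2, and they went opposite ways. CCNE1 had 5.52, 8.37 and 6.62 CPM in control DMSO and 22.7, 18.7 and 21.8 CPM in senescent DMSO, a rise of 1.62 ± 0.17 (adjusted p = 3.08e-08). CCNE2 had 4.47, 4.67 and 5.92 CPM and 0.0617, 0 and 0.275 CPM, a log2 change of -5.33 ± 0.47 to a level of a few counts or none. In control cells CCNE1 had 4.01, 5.08 and 4.23 CPM with IMP1088 and 5.79, 6.44 and 3.97 CPM with DDD86481, the former below every DMSO library and the latter overlapping DMSO. Its change of -0.62 ± 0.18 passed with IMP1088 (adjusted p = 0.0119) and that of -0.35 ± 0.18 with DDD86481 did not (adjusted p = 0.133). CCNE2 had 0.853, 1.51 and 0.534 CPM and 0.626, 0.952 and 0.794 CPM in control cells, log2 changes of -2.35 ± 0.31 and -2.66 ± 0.33. In senescent cells CCNE1 rose further, to 31.6, 27.2 and 29.4 CPM with IMP1088 and 32, 26.1 and 26.2 CPM with DDD86481 (0.48 ± 0.15 and 0.41 ± 0.16). CCNE2 had 0.421, 0.447 and 0.448 CPM with IMP1088, a rise of 1.83 ± 0.69 (adjusted p = 0.0373), and 0.218, 0.157 and 0.429 CPM with DDD86481, which did not pass (1.10 ± 0.77, adjusted p = 0.266). The opposite-strand gene INTS8 covers 37.1% of the exonic length of CCNE2. CCNE1 was not called with IMP1088 in control cells without control DMSO replicate 2 or control IMP1088 replicate 1 (log2 fold changes -0.55 to -0.43). CCNE1 was called with DDD86481 in control cells without control DMSO replicate 1 (log2 fold change -0.49). CCNE1 was not called with IMP1088 in senescent cells without senescent DMSO replicate 2 or senescent IMP1088 replicate 1 (log2 fold changes 0.40 to 0.43). CCNE1 was not called with DDD86481 in senescent cells without senescent DMSO replicate 2 or 3 or senescent DDD86481 replicate 1 (log2 fold changes 0.31 to 0.44). CCNE2 was not called with IMP1088 in senescent cells without senescent DMSO replicate 1 or 2 or senescent IMP1088 replicate 1, 2 or 3 (log2 fold changes 1.30 to 1.86). CCNE2 was called with DDD86481 in senescent cells without senescent DMSO replicate 3, where the 2 libraries left were at or under 3 counts and no fold is given. CCNE1 was not called with IMP1088 in control cells with only the groups compared in the fit (adjusted p = 0.0571).

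E2F1 and E2F2 are activating members of the E2F family. E2F1 had 10.7, 8.61 and 13.3 CPM in control DMSO, 3.21, 4.36 and 4.57 CPM with IMP1088 and 4.80, 4.37 and 4.39 CPM with DDD86481, log2 changes of -1.42 ± 0.18 and -1.26 ± 0.18 with no overlap. In senescent DMSO it had 16.2, 13.1 and 19.3 CPM, a rise of 0.58 ± 0.16 (adjusted p = 0.00355) although the lowest senescent library lay within the control range. With the compounds in senescent cells it had 21, 16.5 and 20.5 CPM and 19.4, 18 and 18.8 CPM, and the differences of 0.25 ± 0.16 and 0.20 ± 0.16 did not pass. E2F2 was the lowest of the 46 genes per length in control DMSO, with 93 counts in all against 1 in senescent DMSO, a scaled ratio of 67.3 with a 95% counting interval of 11.8 to 2685. Its log2 changes in control cells were -2.10 ± 0.45 with IMP1088 and -2.43 ± 0.48 with DDD86481.

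The interaction of further genes is given by role, with IMP1088 first and DDD86481 second. MCM3 had the smallest of the MCM genes and did not pass (0.24 ± 0.20 and 0.23 ± 0.20), and MCM4, another ring subunit, had the largest with IMP1088 (1.02 ± 0.13). CDC45 had 2.36 ± 0.37 and 2.29 ± 0.37, the largest of the helicase cofactors, although its difference in senescent cells had not passed by itself. In the clamp and loader genes the largest were those of RFC3 with IMP1088 (1.36 ± 0.36) and of RFC4 with DDD86481 (1.08 ± 0.22), and RFC5 did not pass (0.31 ± 0.22 and 0.26 ± 0.22). POLE, the catalytic subunit of polymerase epsilon, had the smallest of the polymerase genes (-0.26 ± 0.26 and -0.11 ± 0.26) and did not pass either. Both genes of lagging strand maturation passed with both compounds, FEN1 at 1.32 ± 0.23 and 1.56 ± 0.23 and LIG1 at 0.74 ± 0.17 and 0.60 ± 0.17. So did RPA2 (0.73 ± 0.15 and 0.72 ± 0.15) and RPA3 (1.13 ± 0.27 and 1.37 ± 0.27), whereas RPA1 did not (-0.16 ± 0.10 and -0.16 ± 0.10). DUT had the smallest of the nucleotide genes, 0.72 ± 0.22 and 0.95 ± 0.22, and both passed. UHRF1 passed at 1.18 ± 0.28 and 1.54 ± 0.28, without having risen in senescent cells, and CHAF1B did not pass (0.91 ± 0.39 and 0.64 ± 0.40). CHAF1A passed with DDD86481 (0.41 ± 0.15) and not with IMP1088 (0.31 ± 0.15). CCNE2 had 4.18 ± 0.75 and 3.76 ± 0.85, which rest on the few counts of its senescent libraries, and CCNE1 had 1.10 ± 0.24 with IMP1088. DUT was not called in the interaction with IMP1088 without control DMSO replicate 3 or senescent DMSO replicate 2 or senescent IMP1088 replicate 1 (log2 fold changes 0.50 to 0.66). CHAF1B was called in the interaction with IMP1088 without senescent IMP1088 replicate 3 (log2 fold change 1.13). CHAF1A was not called in the interaction with DDD86481 without control DMSO replicate 3 or control DDD86481 replicate 1 or 2 or senescent DMSO replicate 1, 2 or 3 or senescent DDD86481 replicate 1 or 3 (log2 fold changes 0.37 to 0.44). CHAF1A was not called in the interaction with DDD86481 without a filter on low counts or with only the groups compared in the fit (adjusted p = 0.0757 to 0.150).

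**Figure D5:**
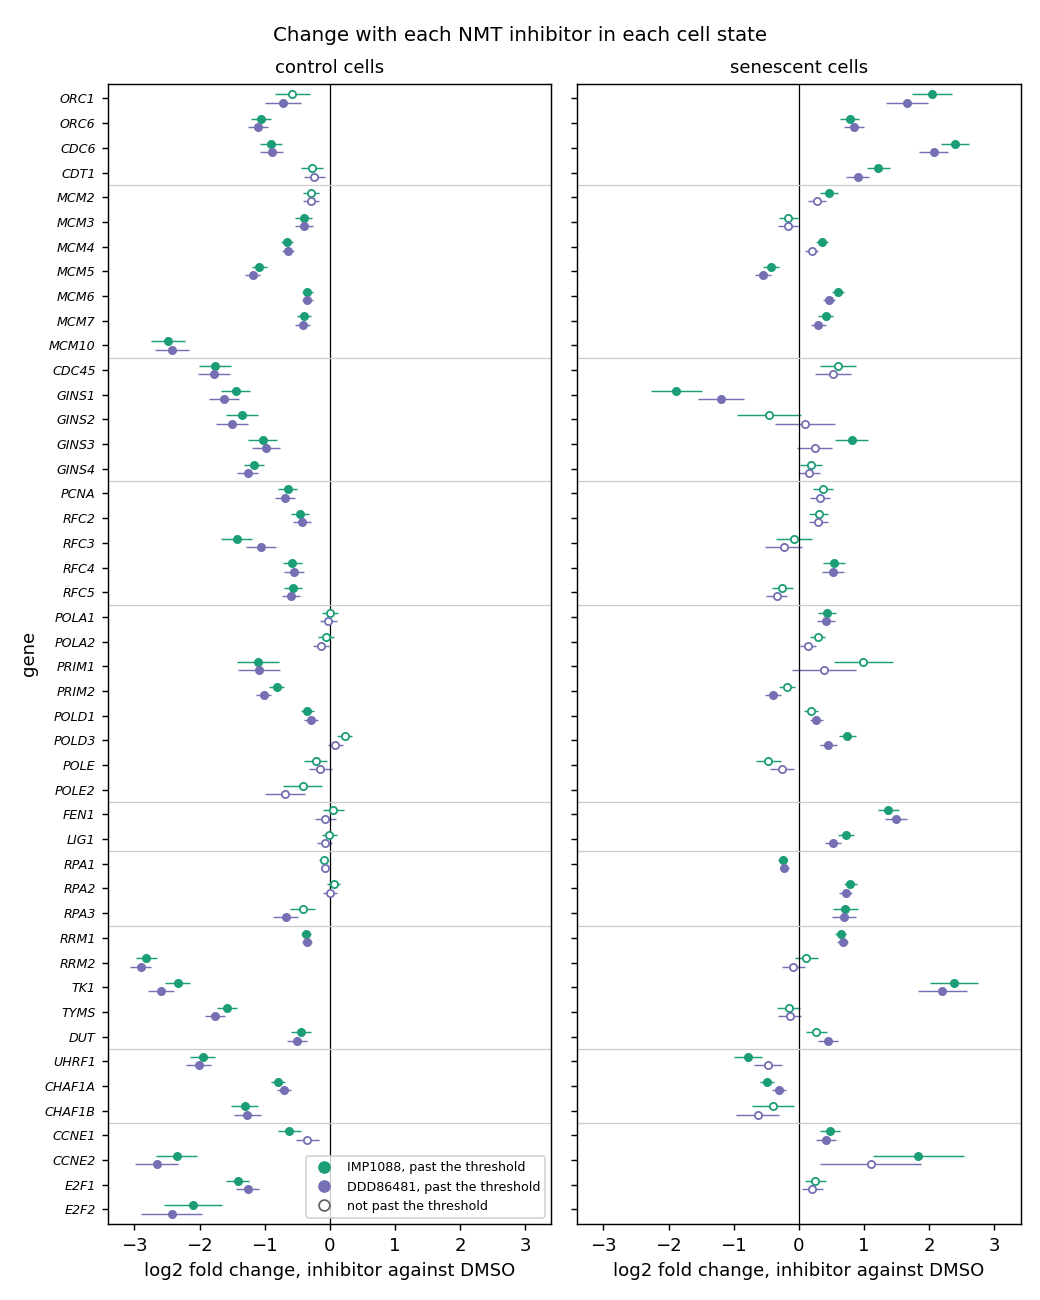
Log2 fold change against DMSO (points) ± SE (whiskers) of each gene with IMP1088 and DDD86481, in control cells (left) and senescent cells (right); filled points are past an adjusted p of 0.05, and MCM10, POLE2 and E2F2 have no point on the right because a group was at or under 3 counts. No filled point lies right of 0 in control cells, and 20 and 18 do in senescent cells.

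How far inhibitor-treated control cells were from senescent cells was read by setting senescent DMSO against each group. Senescent DMSO was lower in 28 genes and higher in 7 against control IMP1088, where 38% of all genes were lower and 33.5% higher. It was lower in 30 and higher in 8 against control DDD86481, where 38% were lower and 33.6% higher. The medians over the 46 genes were -0.55 and -0.54, and over all genes -0.072 and -0.075. Both comparisons share the senescent DMSO libraries. RRM2 differed by 0.055 ± 0.17 and 0.14 ± 0.18 (95% intervals -0.31 to 0.42 and -0.23 to 0.51), CDC45 by -0.069 ± 0.29 and -0.058 ± 0.29 (-0.67 to 0.53 and -0.66 to 0.55) and UHRF1 by 0.24 ± 0.20 and 0.30 ± 0.20 (-0.19 to 0.66 and -0.13 to 0.72), and none of these passed. By contrast TK1 was lower in senescent DMSO (-3.51 ± 0.32 and -3.25 ± 0.33), as were CDC6 (-2.10 ± 0.22 and -2.12 ± 0.22) and MCM6 (-1.88 ± 0.091 and -1.88 ± 0.091). By role, GINS2 was lower in senescent DMSO (-2.45 ± 0.35 and -2.29 ± 0.36), as were CHAF1B (-1.53 ± 0.26 and -1.57 ± 0.26), FEN1 (-0.74 ± 0.16 and -0.62 ± 0.17), LIG1 (-0.60 ± 0.12 and -0.53 ± 0.12), CDT1 (-0.42 ± 0.17 and -0.46 ± 0.18) and RPA1 (-0.21 ± 0.070 and -0.23 ± 0.071). In the loader of PCNA the largest differences were those of RFC5 against IMP1088 (-0.65 ± 0.15) and RFC3 against DDD86481 (-0.72 ± 0.26). Higher in senescent DMSO were ORC6 (0.62 ± 0.16 and 0.67 ± 0.16), MCM5 (0.31 ± 0.11 and 0.41 ± 0.12), POLD1 (0.50 ± 0.10 and 0.45 ± 0.10), POLA2 (0.60 ± 0.12 and 0.68 ± 0.12) and CHAF1A (0.67 ± 0.11 and 0.58 ± 0.11). RPA3 was higher against DDD86481 (0.56 ± 0.20) and did not pass against IMP1088 (0.29 ± 0.19). The differences of RFC2 (0.15 ± 0.14 and 0.11 ± 0.14), PRIM2 (-0.075 ± 0.12 and 0.12 ± 0.12) and RPA2 (0.024 ± 0.10 and 0.082 ± 0.10) did not pass. The largest differences upward were those of CCNE1 (2.24 ± 0.17 and 1.97 ± 0.17) and E2F1 (2.00 ± 0.18 and 1.84 ± 0.18). CDT1 was not called between senescent DMSO and control IMP1088 without control IMP1088 replicate 3 or senescent DMSO replicate 1 or 2 (log2 fold changes -0.41 to -0.29). CDT1 was not called between senescent DMSO and control DDD86481 without control DDD86481 replicate 1 or senescent DMSO replicate 1 or 2 (log2 fold changes -0.45 to -0.32). RPA1 was not called between senescent DMSO and control IMP1088 without senescent DMSO replicate 2 (log2 fold change -0.18). RFC3 was not called between senescent DMSO and control DDD86481 without control DDD86481 replicate 2 or senescent DMSO replicate 3 (log2 fold changes -0.59 to -0.54). MCM5 was not called between senescent DMSO and control IMP1088 without control IMP1088 replicate 1 or 2 or senescent DMSO replicate 3 (log2 fold changes 0.20 to 0.29). RPA3 was not called between senescent DMSO and control DDD86481 without control DDD86481 replicate 1 or 3 or senescent DMSO replicate 3 (log2 fold changes 0.49 to 0.52). RPA1 was not called between senescent DMSO and control IMP1088 without a filter on low counts (adjusted p = 0.184). RPA1 was not called between senescent DMSO and control DDD86481 without a filter on low counts (adjusted p = 0.117). MCM5 was not called between senescent DMSO and control IMP1088 with upper-quartile scaling (adjusted p = 0.129).

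A list of 79 other replication, nucleotide, histone, E2F and cyclin genes was read beside the 46, and 78 were tested, since CHTF8 had no counts. In senescence 42 fell and 13 rose, where 36% of all genes tested were lower and 32.5% higher. Without control DMSO replicate 3, 41 of the 78 fell and 15 rose. MYBL2, a cell cycle transcription factor of the MuvB complex, fell at a log2 change of -6.62 ± 0.33, and CLSPN, a fork checkpoint protein, at -5.23 ± 0.37. E2F8 had 96 counts in control DMSO and 0 in senescent DMSO, at least 23.1-fold lower against a floor of 3 counts over the group. E2F7, a repressing E2F, rose by 4.98 ± 0.23, from 8.42, 5.75 and 3.23 CPM to 204, 187 and 167 CPM. The other 12 that rose were POLD2, POLD4, RRM2B, TK2, RECQL4, CMPK1, CTPS1, E2F6, LIN37, CCND1, CCND2 and CCND3. Among them RRM2B, a ribonucleotide reductase subunit used outside S phase, rose by 1.37 ± 0.10 and mitochondrial TK2 by 0.59 ± 0.099, where their S-phase counterparts RRM2 and TK1 fell. CCND1, a D-type cyclin, rose by 1.87 ± 0.093.

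In control cells the counts of the other genes were 32 lower and 9 higher with IMP1088 and 36 lower and 9 higher with DDD86481. Of all genes tested, 17.4% were lower and 16.3% higher with IMP1088, and 18.7% lower and 17.8% higher with DDD86481. The medians of the other genes were -0.22 and -0.31. MYBL2 fell at a log2 change of -2.92 ± 0.21 and -3.25 ± 0.22, E2F8 at -2.81 ± 0.44 and -2.71 ± 0.44, and CCNA2, the S-phase cyclin, at -2.61 ± 0.19 and -2.57 ± 0.19. The 9 that rose with each compound were MCM9, POLE3, TOPBP1, RECQL4, CAD, RB1, RBL2, LIN37 and CDK4, by 0.32 (RBL2) to 0.66 (LIN37) with IMP1088 and by 0.28 (CDK4) to 0.60 (CAD) with DDD86481. RB1, the retinoblastoma protein, was among them at 0.49 ± 0.11 and 0.49 ± 0.11. Without control DMSO replicate 3, the count that rose was 6 with IMP1088, and without control DMSO replicate 2 it was 6 with DDD86481. RBL2 was not called with IMP1088 in control cells without control DMSO replicate 3 or control IMP1088 replicate 1, 2 or 3 (log2 fold changes 0.16 to 0.34). CDK4 was not called with DDD86481 in control cells without control DMSO replicate 1 or 2 or control DDD86481 replicate 2 or 3 (log2 fold changes 0.20 to 0.29). RBL2 was not called with IMP1088 in control cells with upper-quartile scaling or with only the groups compared in the fit (adjusted p = 0.0868 to 0.165). CDK4 was not called with DDD86481 in control cells with upper-quartile scaling or with only the groups compared in the fit (adjusted p = 0.113 to 0.182). CAD was not called with DDD86481 in control cells with only the groups compared in the fit (adjusted p = 0.0603).

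In senescent cells 16 of the other genes rose and 20 fell with IMP1088, with counts of 18 higher and 14 lower with DDD86481. The IMP1088 counts were 20.5% and 25.6% of the 78, near the 20.6% and 23.9% of all genes tested. With DDD86481, 20.1% of all genes were higher and 23.1% lower. The medians of the other genes were 0.017 and -0.035. CHTF18, a subunit of an alternative clamp loader, rose by 1.31 ± 0.22 and 1.26 ± 0.22, and POLE3, a small polymerase epsilon subunit, by 1.27 ± 0.098 and 1.15 ± 0.098. CCND1 fell at a log2 change of -1.50 ± 0.092 and -1.33 ± 0.092 and CCND2 at -1.45 ± 0.13 and -1.31 ± 0.13. The other 18 that were lower with IMP1088 were POLD2, RRM2B, TIMELESS, ATAD5, TOP1, TOP2A, TOP2B, DCK, SAMHD1, DCTPP1, CTPS1, E2F3, E2F7, TFDP1, CCND3, CDK2, CDK6 and SKP2, from -0.28 for POLD2 to -1.11 for ATAD5. The other 16 that were higher with DDD86481 were ORC3, ORC4, RFC1, GMNN, TOPBP1, MTBP, RECQL4, DONSON, RNASEH2C, DTYMK, CMPK1, E2F4, RB1, LIN37, LIN52 and LIN54, from 0.38 for RFC1 to 1.13 for RECQL4. Over all genes tested the interaction was above 0 in 12.1% and below 0 in 14.2% with IMP1088, and in 14.4% and 15.9% with DDD86481. The interaction of the other genes was above 0 in 23 and below 0 in 6 with IMP1088, and above 0 in 22 and below 0 in 8 with DDD86481. The 6 with IMP1088 were RRM2B, TOP2B, SAMHD1, CCND1, CCND2 and CDK6, and the 8 with DDD86481 were MCM9, TIMELESS, TOP1, SAMHD1, CAD, CCND1, CCND2 and CDK6. CCND2 had the lowest, -1.46 ± 0.18 and -1.31 ± 0.18, and the highest were those of CLSPN (2.98 ± 0.60 and 3.11 ± 0.61) and ASF1B, a histone chaperone (2.98 ± 0.62 and 3.27 ± 0.63). Of all genes, 33.5% were higher and 38% lower in senescent DMSO than in control IMP1088. Against control DDD86481 these shares were 33.6% and 38%. Against control IMP1088, senescent DMSO was higher in 19 and lower in 39 of the other genes, and against control DDD86481 higher in 20 and lower in 37. E2F7 was the furthest above (6.41 ± 0.26 and 6.20 ± 0.25), and MYBL2 was lower (-3.70 ± 0.42 and -3.36 ± 0.44).
 POLD2 was not called with IMP1088 in senescent cells without senescent DMSO replicate 3 or senescent IMP1088 replicate 1 or 3 (log2 fold changes -0.29 to -0.20). ATAD5 was not called with IMP1088 in senescent cells without senescent DMSO replicate 1 or 2 or senescent IMP1088 replicate 1, 2 or 3 (log2 fold changes -1.23 to -0.98).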

How the data were processed

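Poly(A) RNA from 18 libraries (6 groups of 3) was sequenced, and the authors deposited a table of raw read counts per gene, 1 column a library. The study's methods name TopHat, hg19, Ensembl annotation and HTSeq, whereas the submitters' processing notes list DRAGEN, STAR 2.7.8a, DESeq2 1.32.0 and hg38. The methods also name a directional library kit and a strand-specific TopHat setting. Which of these pipelines made the table, and whether counting used strand, is not given in the sources used here. Multi-copy and overlapping genes are therefore uncertain. Exon overlaps of at least 10% were found for MCM2, GINS3, GINS4, RFC5, TYMS, DUT and CCNE2 (opposite strand) and for POLA2, PRIM1 and PRIM2 (same strand) in GENCODE on GRCh37.

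From these deposited counts, genes were filtered with filterByExpr (14341 of 28266 rows kept, holding 99.96% of counts), scaled by TMM and fitted by edgeR 4.0.16 in R 4.3.3 (glmQLFit and glmQLFTest, 1 coefficient a group, all 18 libraries). Benjamini-Hochberg adjustment covered every gene tested, and the SE is the log2 fold change divided by the square root of F. Where every library of a group had 3 counts or fewer, the ratio of summed counts with an exact interval was used, which covers counting error only. Levels between genes were compared per kilobase of the GENCODE canonical transcript. RefSeq promoter windows (GRCh38.p14) were searched for fixed words. Total counts per library, given with the results, set the precision. The fit was checked on simulated data.

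The members and lists were chosen with earlier results of these data known. Genes were named by a rule: in each role and comparison the members with the largest and smallest change, any called against its role, every member of a role of up to 3, and of the other genes the 3 largest and those called against most of the list. Lists of other genes are given by name and range, and members at or under the floor without a fold. MCM6, MCM7, ORC1, PCNA, POLD3 and TYMS, and further comparisons of genes the rule named, were added after their values were seen.

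Alternatives were upper-quartile scaling, no filter, DESeq2 1.42.0, only the groups compared, a replicate block, a test against a 2-fold change and each library left out. Replicate numbers were checked by the correlation of same-numbered libraries' deviations from their group means. Control DMSO and control IMP1088 gave 0.39, 0.12 and 0.23, all over 0.1, and the numbers were taken to pair those libraries, from the data and not from the labels. Differently numbered libraries of these groups reached 0.13, above the 0.12 of replicate 2, so the rule does not settle the pairing. The replicate block changed no call of the 46 genes there. Every other compared pair of groups had at least 1 correlation under 0.1. Among pairs not compared, control IMP1088 and control DDD86481 gave 0.101, 0.270 and 0.129, with differently numbered libraries up to 0.058. Senescent IMP1088 and senescent DDD86481 gave 0.117, 0.126 and 0.119, with differently numbered libraries up to -0.053. A leukocyte marker of the check and the sum that holds it are not reported here.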

Additional observations from a re-analysis of the deposited data

Results flagged for a closer look

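The effect of each compound differed between control and senescent cells by the interaction test, in which the log2 change in control cells is taken from that in senescent cells. With IMP1088 it was above 0 for 33 of the 46 genes, and for 23 of the 78 other replication genes with 6 below 0. With DDD86481 it was above 0 for 32 of the 46, and for 22 of the 78 others with 8 below 0. Of all genes tested, 12.1% were above 0 and 14.2% below with IMP1088, and 14.4% above and 15.9% below with DDD86481. Among the genes whose interaction is printed, TK1 had 4.71 with IMP1088 and 4.79 with DDD86481, CDC6 had 3.31 and 2.97, and CDT1 had 1.49 and 1.14. The values of TK1, and of CCNE2 further on, rest on a few counts or none in each senescent DMSO library. TK1 and CDC6 were lower with both compounds in control cells and higher with both in senescent cells, whereas the compounds’ change in CDT1 passed in senescent cells alone. The interaction was above 0 with both compounds for 30 of the 46 genes, and the 2 interactions share the DMSO libraries. How many of all genes were above 0 with both was not counted. Further values printed for both compounds, IMP1088 first, were 2.36 and 2.29 for CDC45, 1.32 and 1.56 for FEN1, 0.74 and 0.60 for LIG1, 0.73 and 0.72 for RPA2, 1.13 and 1.37 for RPA3, 0.72 and 0.95 for DUT, 1.18 and 1.54 for UHRF1, 4.18 and 3.76 for CCNE2, 2.98 and 3.11 for CLSPN, 2.98 and 3.27 for ASF1B and -1.46 and -1.31 for CCND2. Where the value of 1 compound is printed, MCM4 had 1.02 with IMP1088, RFC3 had 1.36 with IMP1088, CCNE1 had 1.10 with IMP1088, RFC4 had 1.08 with DDD86481 and CHAF1A had 0.41 with DDD86481.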

How the results depend on the processing

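Libraries, 3 a group, limit the fits, and genes of few counts a library in a senescent group are limited by depth. Among these were MCM10, POLE2, E2F2, CCNE2, TK1, GINS1 and GINS2. Of 293 values printed for single genes, 290 kept their direction and side of the threshold with DESeq2, 280 with upper-quartile scaling, 281 without a filter and 275 with only the groups compared in the fit. With the replicate block, which rests on a shared number alone in every compared pair of groups but control DMSO and control IMP1088, 290 did so, no count of calls moved by over 1.5 times (for example 39 of the 46 genes lower in senescence), and PCNA with IMP1088 in senescent cells and RFC2 in senescence passed, at log2 changes of 0.38 and -0.31. A test against a 2-fold change, stricter by construction, kept 154 of the 293. The share of all genes passing it was not counted, so its counts cannot be set against the whole table. Under it the counts of the 46 genes were 1 higher and 23 lower in senescence, 0 higher and 7 lower with IMP1088 in control cells, 0 higher and 7 lower with DDD86481 in control cells, 3 higher and 0 lower with IMP1088 in senescent cells, 3 higher and 0 lower with DDD86481 in senescent cells, 7 higher and 0 lower in the interaction with IMP1088, 7 higher and 0 lower in the interaction with DDD86481, 2 higher and 12 lower in senescent DMSO against control IMP1088 and 2 higher and 11 lower in senescent DMSO against control DDD86481. Of the 78 other genes they were 3 higher and 20 lower in senescence, 0 higher and 8 lower with IMP1088 in control cells, 0 higher and 7 lower with DDD86481 in control cells, 1 higher and 2 lower with IMP1088 in senescent cells, 0 higher and 1 lower with DDD86481 in senescent cells, 3 higher and 0 lower in the interaction with IMP1088, 4 higher and 0 lower in the interaction with DDD86481, 6 higher and 14 lower in senescent DMSO against control IMP1088 and 6 higher and 11 lower in senescent DMSO against control DDD86481. With only the groups compared, 4 and 3 other genes were higher in control cells with IMP1088 and DDD86481, 3 of the 46 were lower with DDD86481 in senescent cells and 5 other genes were below 0 in the interaction with DDD86481. Without a filter, 3 of the 46 were lower with DDD86481 in senescent cells. Upper-quartile scaling gave a median of -1.36 in senescence. The cause of these moves was not tested. Signs that turned belonged to differences near 0 that no setting listed here called: FEN1 with IMP1088 in control cells (-0.0019), POLA1 with IMP1088 in control cells (-0.048), RPA2 in senescence (-0.075), RPA2 in senescent DMSO against control DDD86481 (-0.0093), RPA2 in senescent DMSO against control IMP1088 (-0.079), RRM2 in senescent DMSO against control IMP1088 (-0.050) with upper-quartile scaling, POLA1 with IMP1088 in control cells (-7.45e-04), RPA2 with DDD86481 in control cells (1.08e-04) with no filter, POLA1 with IMP1088 in control cells (-0.0010), RPA2 with DDD86481 in control cells (0.0017) with DESeq2 and RPA2 with DDD86481 in control cells (0.0012) with the replicate block. With 1 library left out, counts of the 46 genes ran from 3 to 6 lower with DDD86481 in senescent cells and counts of the other genes from 3 to 8 lower in the interaction with IMP1088 and 3 to 10 lower in the interaction with DDD86481. The count lower of the 46 genes with DDD86481 in senescent cells was 3 without senescent DMSO replicate 1 or senescent DDD86481 replicate 3. The count lower of the other genes in the interaction with IMP1088 was 3 without control IMP1088 replicate 1 or 2 or senescent DMSO replicate 1 or 2 or senescent IMP1088 replicate 1. The count lower of the other genes in the interaction with DDD86481 was 3 without control DMSO replicate 2, 4 without control DDD86481 replicate 3 or senescent DMSO replicate 1 and 5 without control DMSO replicate 3 or control DDD86481 replicate 1 or senescent DMSO replicate 2 or senescent DDD86481 replicate 2. Differences whose sign turned with 1 library left out, with their ranges, were those of CDC45 in senescent DMSO against control DDD86481 (-0.29 to 0.054), CDC45 in senescent DMSO against control IMP1088 (-0.17 to 0.043), FEN1 with DDD86481 in control cells (-0.17 to 0.11), FEN1 with IMP1088 in control cells (-0.048 to 0.23), GINS2 with DDD86481 in senescent cells (-0.061 to 0.44), LIG1 with IMP1088 in control cells (-0.076 to 0.045), POLA1 with DDD86481 in control cells (-0.11 to 0.068), POLA1 with IMP1088 in control cells (-0.086 to 0.093), POLE in the interaction with DDD86481 (-0.40 to 0.092), RFC2 in senescent DMSO against control DDD86481 (-8.31e-04 to 0.20), RFC3 with IMP1088 in senescent cells (-0.24 to 0.10), RPA2 with DDD86481 in control cells (-0.062 to 0.11), RPA2 with IMP1088 in control cells (-0.0018 to 0.17), RPA2 in senescence (-0.017 to 0.19), RPA2 in senescent DMSO against control DDD86481 (-0.018 to 0.12), RPA2 in senescent DMSO against control IMP1088 (-0.086 to 0.060), RPA3 in senescence (-0.31 to 0.22), RRM2 with IMP1088 in senescent cells (-0.037 to 0.30), RRM2 in senescent DMSO against control IMP1088 (-0.095 to 0.18), TYMS with DDD86481 in senescent cells (-0.31 to 0.036) and TYMS with IMP1088 in senescent cells (-0.33 to 0.021).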
